A study of Homo sapiens with 6 samples.

Results

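The subunits described here form the SWI/SNF family of chromatin remodelling complexes, also called BAF complexes. They are the 10 genes SMARCA2, SMARCA4, SMARCB1, SMARCC1, SMARCC2, SMARCD1, ARID1A, ARID1B, ARID2 and PBRM1. They were chosen by name: a row of the count table was taken where its Ensembl transcript ID maps, in GENCODE release 29, to one of these genes. All 10 had exactly 1 row, out of 22279 rows in the table. RNA-seq was done on LNCaP cells, a human prostate cancer line in long use that depends on androgen. There were 3 libraries of cells with a hairpin against RB (shRB) and 3 of cells with a control hairpin (shCON). Every culture, controls included, had 72 h in CDT, which the labels list as an arrest treatment for the cell cycle and the series describes as hormone deficient. The labels give 1 hairpin name per group and do not say whether replicates were separate cultures, so p-values measure only the spread between these samples, and hairpin and RB loss cannot be told apart.

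SWI/SNF complexes use ATP to slide or evict nucleosomes and so open or close DNA to transcription factors. Each complex holds 1 ATPase, either SMARCA2 (BRM) or SMARCA4 (BRG1). In canonical BAF and PBAF complexes, the ATPase joins a shared core of SMARCB1, SMARCC and SMARCD proteins. Canonical BAF complexes add ARID1A or ARID1B, whereas PBAF complexes add ARID2 and PBRM1. Both ATPases are known to bind RB and to take part with it in the repression of cyclin genes. The comparison of shRB with shCON therefore shows whether the mRNAs of these subunits differ between the hairpins under hormone-deficient conditions.

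Total counts were 9780579 to 10898768 in shRB and 6115310 to 20091488 in shCON. RB1, the target of the hairpin, averaged 5.02 ± 1.06 CPM (the depth-scaled count, on library totals adjusted by TMM) in shRB and 54.7 ± 1.93 CPM in shCON (SD, n = 3 each), with no overlap between groups. The LNCaP and luminal markers KLK3, HOXB13, KRT8, KRT18 and TMPRSS2 each had at least 128.9 CPM in every library of either group. Of 9 basal, stromal and blood cell markers with a row, 4 (KRT5, PTPRC, PECAM1 and HBB) were at 0 counts in all 6 libraries, and TP63 had at most 1 count. The 9 summed to 18.0 to 22.2 CPM in shRB and 24.5 to 28.3 CPM in shCON, with no overlap, and most of this was COL1A1 (11.7 to 15.3 CPM in shRB and 16.3 to 19.4 CPM in shCON; edgeR adjusted p = 0.055). COL3A1 and CD68 did not pass (edgeR adjusted p of 0.18 and 0.25), and KRT14 had 0 to 1 counts in shRB and 3 to 13 in shCON. The part of these genes' cells in the results below was not tested. Among the shRB libraries, replicate 2 stood apart: chi-square divided by its degrees of freedom, which is near 1 for counting noise alone, was 8.92 and 9.05 against replicates 1 and 3, beside 2.03 between those. Among the shCON libraries it was 4.78 between replicates 1 and 2, and 1.97 and 2.11 for these against replicate 3.

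The 10 subunits differed between shRB and shCON about as much as other genes did. Their median absolute log2 fold change was 0.17, beside 0.19 over all genes tested. By edgeR's quasi-likelihood test with Benjamini-Hochberg adjustment over all 11712 genes tested, 1 subunit rose (SMARCD1) and 1 fell (ARID2) at an adjusted p under 0.05, and 8 did not pass. That is 20% of the subunits, against 25.3% of all genes tested, of which 12.8% were higher and 12.5% lower. The share of subunits called was thus near the background in this fit. All 10 passed the filter on low counts, with 247 to 5336 counts per library. Log2 fold changes were negative for 8 subunits and positive for 2, beside 5974 negative and 5738 positive over all genes tested. The negative sign of SMARCA4 turned in 2 of 19 alternatives and that of PBRM1 in 4. The median of the subunits was −0.13 (−0.17 to −0.10 with 1 library left out), beside −0.01 over all genes tested. At an adjusted p under 0.01, 1 subunit was called (ARID2), against 13.5% of all genes. Without shCON 1, the deepest library, 1 was called (ARID2, against 15.0%), and without shRB 2, 3 were (SMARCD1, ARID1A and ARID2, against 33.9%). At an unadjusted p under 0.05 there were 5 of 10 subunits (SMARCB1, SMARCC2, SMARCD1, ARID1A and ARID2), against 37.4% of all genes tested. The libraries of the groups did not overlap for 2 subunits on the higher side (SMARCB1 and SMARCD1) and for 4 on the lower side (SMARCA2, SMARCC2, ARID1A and ARID2), against 21.0% and 20.2% of all genes tested, or 41.1% in either direction. Added together, the 10 subunits reached 940.8, 960.0 and 977.8 CPM in shRB, against 992.5, 1020 and 967.2 CPM in shCON, so the summed levels overlapped. RNA of bulk cultures was measured, so fewer cells of a kind and less RNA per cell cannot be told apart.

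**Figure D1:**
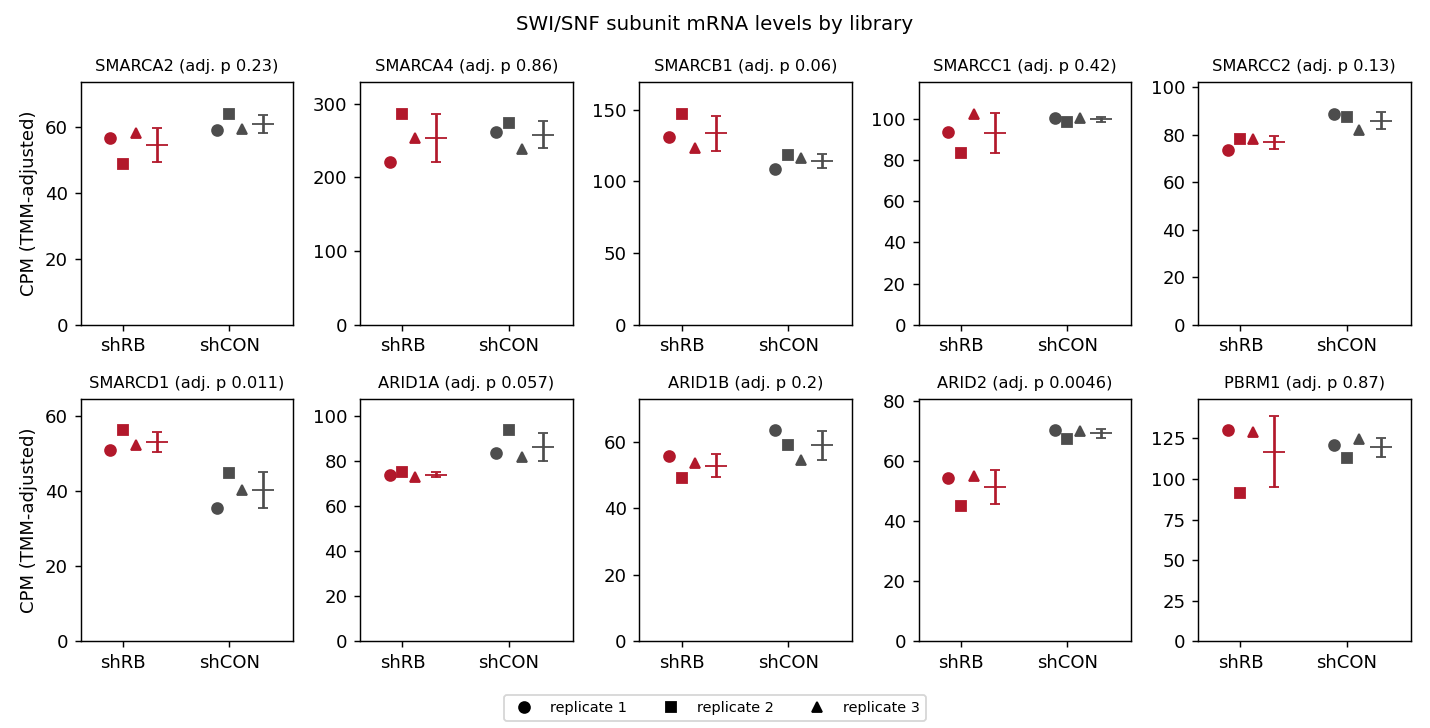
Level of each of the 10 subunits in every library, in TMM-adjusted CPM on axes that start at 0. Shapes mark replicate numbers, the bar beside each group is the mean ± SD (n = 3), and the adjusted p of edgeR stands in each title. SMARCD1 and ARID2 are the subunits with an adjusted p under 0.05, and PBRM1 and SMARCA4 show shRB 2 apart from the other shRB libraries in opposite directions.

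The ATPases did not pass. SMARCA4, the ATPase subunit BRG1, was read at 220.9, 286.0 and 253.3 CPM in shRB 1 to 3, against 261.9, 273.8 and 238.0 CPM in shCON 1 to 3. The groups overlapped widely, and the log2 fold change was −0.03 ± 0.09 (SE; 95% interval −0.23 to 0.17; edgeR adjusted p = 0.86). An increase above 1.13-fold or a decrease below 0.85-fold lay outside that interval. Its sign turned without shRB 1 (0.06) and without shCON 2 (0.02).

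SMARCA2, the alternative ATPase BRM, was lower in level than its paralog in every library. It had 56.7, 48.8 and 58.3 CPM in shRB, against 59.3, 64.1 and 59.5 CPM in shCON. The highest shRB library lay just under the lowest shCON library, but the log2 fold change of −0.16 ± 0.09 did not pass (95% interval −0.35 to 0.04; edgeR adjusted p = 0.23). Per kb of transcript, SMARCA2 made up 17.7 ± 2.98% of the counts of the 2 ATPases in shRB and 18.9 ± 0.77% in shCON (SD, n = 3 each). The log2 ratio of SMARCA2 to SMARCA4 counts averaged −2.21 ± 0.31 in shRB and −2.08 ± 0.07 in shCON, a difference of −0.13 (exact two-sided permutation p = 0.80, 0.90 adjusted over 4 ratios, where 0.10 is the smallest p that 3 against 3 libraries can give). Without shRB 2 that difference was 0.04, of the opposite sign.

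Among the core subunits, SMARCD1 rose. SMARCD1 (BAF60A), which bridges the complex to transcription factors, had 50.9, 56.2 and 52.5 CPM in shRB, against 35.5, 45.0 and 40.4 CPM in shCON. Every shRB library was above every shCON library. The log2 fold change was 0.41 ± 0.10, or 1.33-fold (95% interval 1.14 to 1.55; edgeR adjusted p = 0.011; adjusted p of 0.00012 to 0.083 over the 19 alternatives). The call was lost without shCON 1, the lowest control for SMARCD1 and the deepest library: the log2 fold change was then 0.31 and the adjusted p was 0.083. In that fit 15.0% of all genes were called, against 25.3% with all 6 libraries.

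SMARCB1 (INI1), the core subunit whose loss causes rhabdoid tumours, had 131.0, 147.0 and 123.0 CPM in shRB, against 108.6, 118.2 and 116.2 CPM in shCON. The groups did not overlap, yet the log2 fold change of 0.23 ± 0.08 missed the threshold (edgeR adjusted p = 0.060; 0.0037 to 0.23 over the alternatives). The scaffold subunit SMARCC1 (BAF155) had 93.6, 83.3 and 102.3 CPM in shRB, against 100.6, 98.4 and 100.5 CPM in shCON. Its shCON libraries lay close together, whereas the shRB libraries spread around them on both sides. SMARCC1 did not pass, at a log2 fold change of −0.10 ± 0.08 (edgeR adjusted p = 0.42).

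SMARCC2 (BAF170), the paralog of SMARCC1, had 73.8, 78.2 and 78.3 CPM in shRB, against 88.8, 87.3 and 81.9 CPM in shCON. All shRB libraries were lower, with a log2 fold change of −0.17 ± 0.08 that did not pass (edgeR adjusted p = 0.13). Its count is uncertain. The exons of SMARCC2 overlap those of the myosin light chain gene MYL6 on the opposite strand over 514 bases, 11% of its 50-base stretches occur there, and the library kit does not mark strand. MYL6 itself had 1017 ± 124.2 CPM in shRB and 1129 ± 33.2 CPM in shCON, a log2 fold change of −0.15 ± 0.09 (edgeR adjusted p = 0.23), and the part of MYL6 reads in the SMARCC2 result was not tested. SMARCC1 made up 44.8 ± 2.73% of the summed SMARCC1 and SMARCC2 counts per kb in shRB and 43.8 ± 1.18% in shCON. The log2 ratio of SMARCC1 to SMARCC2 counts differed by 0.06 (exact permutation p = 0.60, adjusted 0.90).

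The subunits that define canonical BAF were both lower on average in shRB, without passing. ARID1A (BAF250A), a DNA-binding subunit often mutated in cancer, had 73.9, 75.0 and 72.9 CPM in shRB, against 83.4, 93.5 and 81.9 CPM in shCON. The shRB libraries lay close together, and all were under the lowest shCON library. The log2 fold change of −0.22 ± 0.08 (95% interval −0.40 to −0.05) narrowly missed the threshold (edgeR adjusted p = 0.057; 0.0028 to 0.23 over the alternatives). ARID1B (BAF250B), its mutually exclusive paralog, had 55.6, 48.9 and 53.6 CPM in shRB, against 63.3, 58.9 and 54.6 CPM in shCON. One shRB library exceeded the lowest shCON library, and the log2 fold change was −0.17 ± 0.09 (edgeR adjusted p = 0.20). The log2 ratio of ARID1B to ARID1A counts was −0.49 ± 0.11 in shRB and −0.55 ± 0.14 in shCON, a difference of 0.06 (exact permutation p = 0.70, adjusted 0.90).

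Of the PBAF subunits, ARID2 fell and PBRM1 did not pass. ARID2 (BAF200) had 54.5, 44.9 and 55.0 CPM in shRB, against 70.1, 67.4 and 70.1 CPM in shCON. The groups did not overlap, with a gap between the highest shRB and the lowest shCON library that exceeded the SD of either group. The log2 fold change was −0.43 ± 0.09, so that the level in shRB was 0.74 times that in shCON (95% interval 0.65 to 0.85; edgeR adjusted p = 0.0046). ARID2 kept its direction and its call in all 19 alternatives, with log2 fold changes of −0.47 to −0.33 and adjusted p of 0.00011 to 0.028. The value nearest 0 came from leaving out shRB 2, the lowest library (−0.33, adjusted p = 0.00083).

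PBRM1 (BAF180), which carries several bromodomains that bind acetylated histones, had 129.8, 91.6 and 128.8 CPM in shRB, against 121.0, 113.0 and 124.3 CPM in shCON. Its shRB libraries lay on both sides of the shCON range, with shRB 2 far below the others. The log2 fold change was −0.03 ± 0.11 (95% interval −0.28 to 0.22; edgeR adjusted p = 0.87), and it was 0.13 without shRB 2 (adjusted p = 0.17). Summed, ARID2 and PBRM1 had a log2 ratio to ARID1A and ARID1B of 0.40 ± 0.22 in shRB and 0.38 ± 0.13 in shCON, a difference of 0.02 (exact permutation p = 0.90, adjusted 0.90). The ratio of PBAF to canonical BAF subunit mRNA was thus spread over overlapping ranges in the groups.

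**Figure D2:**
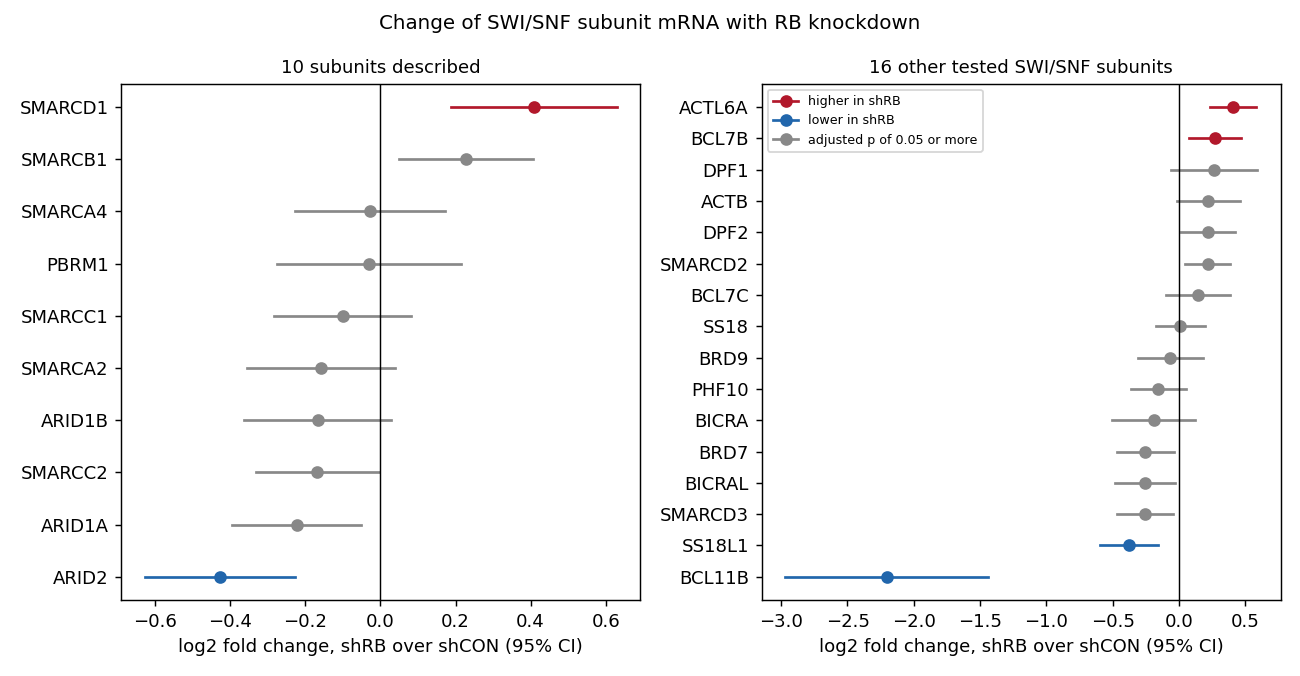
Log2 fold change of shRB over shCON with its 95% interval for the 10 subunits described (left) and for 16 other tested SWI/SNF subunits (right), on separate scales, ordered by size. Red marks genes higher and blue genes lower in shRB at an adjusted p under 0.05; SMARCD1 and ARID2 are called on the left, and ACTL6A, BCL7B, SS18L1 and BCL11B on the right, where BCL11B passed the filter on low counts only through shCON.

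Levels of different subunits were compared per kb of the counted transcript. In shCON the order was SMARCB1 (76.2 ± 3.39 CPM per kb), SMARCA4 (45.5 ± 3.21), SMARCC2 (20.1 ± 0.85), PBRM1 (15.9 ± 0.77), SMARCC1 (15.7 ± 0.20), SMARCD1 (11.02 ± 1.29), SMARCA2 (10.6 ± 0.47), ARID1A (10.05 ± 0.74), ARID2 (8.01 ± 0.18) and ARID1B (5.45 ± 0.41; SD, n = 3 for all, levels in CPM per kb). Neighbours whose libraries overlapped, and whose order is therefore not set, were PBRM1 and SMARCC1, SMARCD1 and SMARCA2, and SMARCA2 and ARID1A. The order of the means was the same in shRB, where SMARCB1 averaged 89.1 ± 8.16 CPM per kb and ARID1B 4.88 ± 0.32 CPM per kb. SMARCD1 overlapped SMARCA2 in shCON, but in shRB, at 13.9 to 15.4 CPM per kb, it lay above SMARCA2 (8.47 to 10.1) and within the range of SMARCC1 (13.1 to 16.1). These levels assume that reads come from the 1 transcript that names each row, and the genes have 8 to 66 annotated transcripts each. The place of SMARCC2 is uncertain as well, because its exons overlap those of the more abundant MYL6, and the part of MYL6 reads was not tested.

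The position of shRB 2 among the shRB libraries moved with the base composition of the transcripts. GC content of the 10 counted transcripts ranged from 40.4% (PBRM1) to 60.8% (SMARCA4). In shRB 2, 5 subunits had their lowest value of the 3 shRB libraries (ARID2, PBRM1, SMARCC1, SMARCA2 and ARID1B, GC of at most 53.7%), and 4 had their highest (SMARCD1, ARID1A, SMARCB1 and SMARCA4, GC of at least 54.7%). The log2 difference of shRB 2 from the mean of shRB 1 and shRB 3 ran from −0.50 for PBRM1 to 0.27 for SMARCA4. Across the 10 subunits this difference had a Pearson correlation of 0.93 and a Spearman correlation of 0.95 with GC content, beside 0.62 and 0.69 across 11674 tested genes. These are descriptions, because all points come from the same 3 libraries. ARID2, with 40.8% GC, was at −0.29 in shRB 2 relative to the other shRB libraries, and SMARCD1, with 54.7% GC, at 0.12. With an offset that removes each library's trend with GC content, ARID2 was −0.34 (edgeR adjusted p = 0.0002) and SMARCD1 0.40 (edgeR adjusted p = 0.0003), and PBRM1 turned to 0.06 (edgeR adjusted p = 0.51). SMARCB1, SMARCC2 and ARID1A also passed in that fit (edgeR adjusted p of 0.0046, 0.018 and 0.0034), so that 5 subunits were called, against 40.1% of all genes. With the replicate number as a block the same 5 were called (38.4% of all genes), and with block and offset together ARID1B as well (42.2%). The part of base composition in the differences between groups was not tested beyond these fits.

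**Figure D3:**
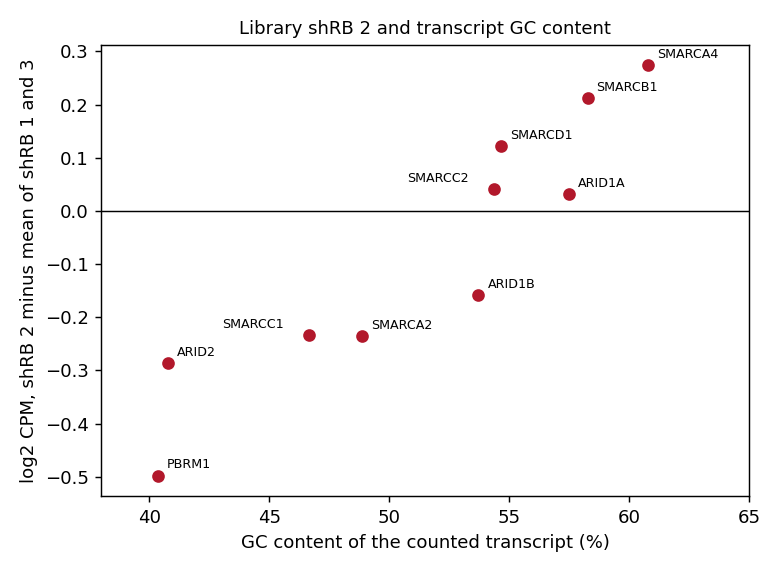
Log2 CPM of shRB 2 minus the mean of shRB 1 and shRB 3 (vertical axis) against GC content of the counted transcript (horizontal axis, %), with 1 point per subunit. PBRM1 and ARID2, with the lowest GC content, lie at −0.50 and −0.29, and SMARCA4, with the highest, at 0.27.

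Genes beside the subunits on their chromosomes did not always move as the subunits did. Among the 20 tested genes nearest to SMARCC1 and the 20 nearest to PBRM1, both on chromosome 3, the median log2 fold changes were 0.28 and 0.24, with 11 and 9 genes higher and 0 and 3 lower. The median of all 663 tested genes of chromosome 3 was itself 0.15, beside −0.01 over all genes, of which 12.8% were higher and 12.5% lower. SMARCC1 and PBRM1 themselves were at −0.10 and −0.03. Around ARID1B on chromosome 6 the median of 20 neighbours was −0.22, with 0 higher and 7 lower, beside −0.17 for ARID1B. Around SMARCB1 on chromosome 22, 7 of 20 neighbours were higher and 2 lower, with a median of 0.07, beside 0.23 for SMARCB1. Neighbours of SMARCD1 and ARID2, both on chromosome 12, had medians of −0.03 and −0.05, with 2 and 1 higher and 4 and 3 lower. No test was made of a subunit against its neighbours.

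The promoter of SMARCD1, the subunit that rose, is shown with that of E2F1 for comparison, because RB acts on genes through E2F factors. Sequences are from RefSeq (GRCh38.p14), 250 bases before to 50 after the annotated start. Capitals mark E2F words, and none was found in SMARCD1.
SMARCD1 (chr12:50085092-50085391, plus strand): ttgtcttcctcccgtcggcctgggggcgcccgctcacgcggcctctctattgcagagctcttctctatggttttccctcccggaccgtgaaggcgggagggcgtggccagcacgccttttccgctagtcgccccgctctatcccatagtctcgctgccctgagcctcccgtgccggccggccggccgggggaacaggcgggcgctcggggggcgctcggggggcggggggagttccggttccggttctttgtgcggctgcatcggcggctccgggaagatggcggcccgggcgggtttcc
E2F1 (chr20:33686336-33686635, minus strand): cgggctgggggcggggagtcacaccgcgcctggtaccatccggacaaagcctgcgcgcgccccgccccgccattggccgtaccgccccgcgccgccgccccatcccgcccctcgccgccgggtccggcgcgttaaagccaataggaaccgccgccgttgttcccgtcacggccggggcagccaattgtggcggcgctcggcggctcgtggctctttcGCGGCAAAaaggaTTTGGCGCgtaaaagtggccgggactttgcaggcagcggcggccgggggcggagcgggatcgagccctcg
The words searched on both strands were TTTCCCGC, TTTGGCGC, TTTGCCGC and TTTCGCGC, and, as a looser form contained in them, the same words without their first T. At least 1 of the longer words stands in 3.31% of 35116 RefSeq promoters of this length and 1 of the shorter words in 13.0%. Of the 10 subunits, 7 had a promoter in the table (SMARCA2, SMARCA4, SMARCB1, SMARCD1, ARID1A, ARID1B and PBRM1), several of them with more than 1 start, and none of these windows held a word of either kind. E2F1 held 2 of the longer words, and the CDK1 windows, which overlap, shared 1. The windows of CCNA2, CCNE1 and CDKN1A, which rose as well, held none of either kind. A missing word says only that these letters are not in this window.

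Of 21 other SWI/SNF subunits listed, 19 had a row and 16 passed the filter on low counts, among them BCL11B, which passed only through shCON. Of the other 15, 2 rose (ACTL6A and BCL7B), 1 fell (SS18L1) and 12 stayed short of the threshold, with a median log2 fold change of 0.01. That is 20% called, against 25.3% of all genes tested. With BCL11B counted, 25% of 16 were called. That share was 62.5% with the replicate block (38.4% of all genes), 50% with the GC offset (40.1%) and 56.2% with both (42.2%). BCL11B was called in each of these fits, so these shares include its call and are not read as results. ACTL6A (BAF53A), the actin-like subunit of dividing cells, had 95.6, 88.8 and 92.3 CPM in shRB, against 71.4, 64.5 and 73.2 CPM in shCON. It rose by 0.41 ± 0.08 on the log2 scale (edgeR adjusted p = 0.0026), with no overlap between groups. Its neuronal counterpart ACTL6B was at 0 counts in all 6 libraries. ACTL6A shares 124 bases of exon with MRPL47 on the opposite strand, which was 0.43 ± 0.08 (edgeR adjusted p = 0.0022), so the ACTL6A count is uncertain.

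BCL11B, a zinc finger transcription factor found with BAF complexes in T cells and neurons, was at a low level in both groups. It had 5, 2 and 5 counts in shRB 1 to 3 and 37, 20 and 10 counts in shCON 1 to 3, or 0.38 ± 0.15 CPM in shRB and 1.82 ± 0.19 CPM in shCON (SD, n = 3 each). The groups did not overlap, but because the gene was kept only through its shCON level, its test is not read as a result. It was set aside after its values were seen. SS18L1 (CREST), known from neuronal BAF complexes, fell to 25.8 ± 1.5 CPM in shRB, against 33.3 ± 2.55 CPM in shCON (−0.38 ± 0.10; edgeR adjusted p = 0.015). It no longer passed without shRB 1 (adjusted p = 0.051), without shCON 1 (0.096) or without shCON 2 (0.055). BCL7B, a small BAF subunit, rose to 53.3 ± 3.81 CPM in shRB, against 44.2 ± 2.30 CPM in shCON (0.27 ± 0.09; edgeR adjusted p = 0.043). Its call was lost with DESeq2 (adjusted p = 0.068), with upper quartile scaling (0.060) and without any 1 library other than shRB 2 (0.054 to 0.20). The most abundant of these subunits, ACTB and SMARCD2, were 0.22 ± 0.11 and 0.22 ± 0.08 on the log2 scale and did not pass (edgeR adjusted p of 0.16 and 0.059).

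At the position held by SMARCD proteins, SMARCD2 (BAF60B) and SMARCD3 (BAF60C) compete with SMARCD1. SMARCD3 was taken up after its values were seen. Per kb of transcript, SMARCD1 made up 9.84 ± 0.43% of the summed counts of the 3 paralogs in shRB and 7.97 ± 0.69% in shCON. SMARCD2 made up 66.1 ± 0.18% in shRB and 61.0 ± 1.34% in shCON. SMARCD3 made up 24.1 ± 0.59% in shRB and 31.0 ± 1.53% in shCON (SD, n = 3 each). The ranges of the groups did not overlap for any of the 3 shares, which are not independent of each other because they add to the whole. For single genes, the groups did not overlap in 41.1% of all genes tested. The shares were not among the ratios that were tested, so no shift between the paralogs is concluded. SMARCD2 and SMARCD3 did not pass as single genes (log2 fold changes of 0.22 ± 0.08 and −0.26 ± 0.10; edgeR adjusted p of 0.059 and 0.069). For ARID2 within the summed counts per kb of ARID1A, ARID1B and ARID2, the share was 30.55 ± 2.12% in shRB and 34.1 ± 1.72% in shCON, with the highest shRB library at 32.1% and the lowest shCON library at 32.3%.

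**Figure D4:**
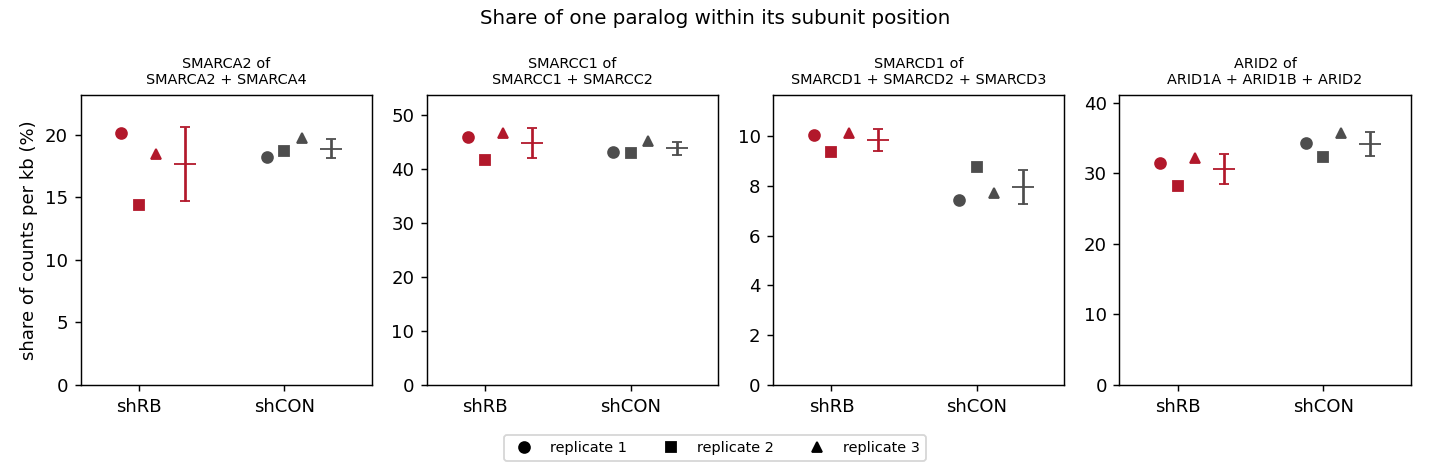
Share of 1 paralog in the summed counts per kb of its subunit group, in %, by library, on axes that start at 0. Shapes mark replicate numbers and bars the mean ± SD (n = 3). The SMARCD1 share lies at 9.35% to 10.1% in shRB and 7.43% to 8.74% in shCON, while the SMARCA2 and SMARCC1 shares of the groups overlap.

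Of 18 remodelling ATPases of other families, 17 were tested. Among them 1 rose, 2 fell and 14 stayed short of the threshold, with a median log2 fold change of −0.03. That is 17.6% called, against 25.3% of all genes tested. The share was 41.2% with the replicate block (38.4% of all genes), 35.3% with the GC offset (40.1%) and 35.3% with both (42.2%). CHD4, the ATPase of the NuRD complex, rose to 248.9 ± 10.7 CPM in shRB, against 207.7 ± 17.7 CPM in shCON (0.26 ± 0.08; edgeR adjusted p = 0.027). CHD6 fell to 59.2 ± 10.1 CPM in shRB, against 78.6 ± 6.46 CPM in shCON (−0.41 ± 0.11; edgeR adjusted p = 0.018). EP400, the ATPase of the TIP60 complex, fell to 31.7 ± 2.09 CPM in shRB, against 38.9 ± 3.74 CPM in shCON (−0.30 ± 0.10; edgeR adjusted p = 0.048). The most abundant of these genes, CHD3, was 0.05 ± 0.09 on the log2 scale (edgeR adjusted p = 0.72) and −0.05 without shRB 2. The CHD4 call was lost without shRB 3, shCON 1 or shCON 3 (adjusted p of 0.070, 0.11 and 0.14), the CHD6 call without shCON 1 or shCON 3 (0.096 and 0.055), and the EP400 call with DESeq2 (0.089), with a filter at a mean of 1 CPM (0.051) and without any 1 library other than shRB 2 (0.053 to 0.20).

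Genes known to respond to RB together with BRG1, or to loss of SWI/SNF function, were examined beside the subunits. Of 14 listed, 9 were tested, of which 5 rose, 0 fell and 4 stayed short of the threshold, with a median log2 fold change of 0.52. That is 55.6% called, all higher, against 12.8% of all genes tested called higher. The list holds E2F-regulated cell cycle genes chosen with earlier results of these data known. Its share above that of all genes could thus be foreseen and is not read as a result. The 5 were the cyclin genes CCNA2 and CCNE1, the mitotic kinase gene CDK1, E2F1 and the inhibitor gene CDKN1A, with log2 fold changes of 0.57, 0.57, 0.83, 0.52 and 1.38 (SE of 0.07 to 0.10; edgeR adjusted p of at most 0.0016). CCNA2 shares 254 bases of exon with EXOSC9 on the opposite strand. The most abundant members, the adhesion gene CDH1 and the cyclin gene CCND1, did not pass (−0.11 ± 0.07 and −0.07 ± 0.07; edgeR adjusted p of 0.30 and 0.48). CD44, which is known to need BRG1 or BRM for its expression, had at most 1 count in any library of either group, and MMP2 and PLAU were at 0 in all 6.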

How the data were processed

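The values analysed are counts as the authors deposited them: unscaled whole numbers, by transcript ID and library. Per the submitters' processing notes, the tools were STAR, HOMER and edgeR and the genome build was hg19. The annotation, the counting options and whether strand was used: not given in the sources used here. Per the labels' protocols, the library kit was Illumina TruSeq RNA. IDs were joined to GENCODE release 29 (another build, used for names, length, GC content, exon overlap and gene order), and 97 of 22279 IDs did not match.

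Genes were kept by filterByExpr (minimum count 10, minimum total 15), scaled by TMM and tested with edgeR 4.0.16 (R 4.3.3), glmQLFit and glmQLFTest, group as the only term, with Benjamini-Hochberg adjustment over all 11712 genes. SE is the log2 fold change divided by the square root of F. Ratios of counts within a library were compared by exact permutation (scipy 1.17.1). The procedure was tested on simulated counts with 50 genes changed at each fold. It recovered 16% of 1.25-fold, 84% of 1.5-fold, 86% of 2-fold and 98% of 4-fold changes, and 5 of 147 calls were false. A subunit that did not pass is therefore not shown to be unchanged. Alternatives were DESeq2 1.42.0, limma-voom (limma 3.58.1), robust fitting, 3 scalings, 2 filters, the replicate block, a loess offset on GC content, the 20 most abundant IDs left out, an adjusted p under 0.01 and each library left out. Besides the 10 subunits, RB1 and genes singled out, the text names from each list the called genes (at most 6) and the 2 most abundant. The subunits and lists were chosen with earlier results of these data known. Some identity markers checked are not reported here.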

Additional observations from a re-analysis of the deposited data

How the results depend on the processing

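Of the 10 subunits, SMARCD1 lost its call at an adjusted p under 0.01 and without shCON 1 (adjusted p = 0.083), and ARID2 kept its call in every alternative. Both were called by DESeq2 and limma-voom, which called no other subunit. Subunits called higher (1) and lower (1) became 2 and 1 without a filter, beside 1641 and 1863 of 16586 genes. They became 1 and 2 with upper quartile scaling (1328 and 1671 of 11712 genes) or library totals only (1379 and 1519 of 11712). With the GC offset they were 2 and 3 (40.1% of all genes called), and at 0.01 they were 0 and 1 (13.5%). With 1 library left out they ranged from 0 to 2 and from 1 to 2, beside 863 to 2074 and 912 to 1956 of 11798 to 11877 genes. These shifts are not read as results about the subunits. Whether the replicate numbers pair the libraries is not known. Same-numbered libraries had correlations of deviations of 0.24, 0.35 and −0.0003, and the third pair stayed under the 0.1 set for pairing. Libraries of different numbers ranged from −0.37 to 0.27. These values cannot decide the question, because each deviation is taken from the mean of only 3 libraries. With the replicate block 2 subunits were higher and 3 lower (38.4% of all genes called), and with the block and the GC offset 2 and 4 (42.2%). The log2 fold change of PBRM1 turned positive with the GC offset (0.055) and with the block and GC offset (0.0515), and ranged from −0.112 to 0.125 with 1 library left out. With 1 library left out, that of SMARCA4 ranged from −0.117 to 0.0638 and that of CHD3 from −0.0474 to 0.139. The difference in the log2 ratio of SMARCA2 to SMARCA4 ranged from −0.256 to 0.0386, and that of PBAF to canonical BAF subunits from −0.0552 to 0.145.

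Over all genes, 2704 were higher with the GC offset, 2868 with the block and GC offset and 787 at 0.01 (863 to 2074 with 1 library left out), and 2294 were lower with the block and 793 at 0.01 (912 to 1956). The share of all genes called was 25.3% in the main fit and 13.5% at 0.01. It was 38.4% with the block, 40.1% with the GC offset, 42.2% with both, 15.0% without shCON 1 and 33.9% without shRB 2. Genes called higher and lower were 1273 and 1127 of 13048 with DESeq2 and 1641 and 1863 of 16586 without a filter. They were 1328 and 1671 of 11712 with upper quartile scaling, and 1529 and 1388 of 11607 at a mean of at least 1 CPM. The counts below are given only beside these. Other SWI/SNF subunits, BCL11B included, called higher numbered 1 with DESeq2, upper quartile scaling or 0.01, 4 without a filter or with the GC offset and 5 with the block with or without the offset (1 to 2 with 1 library left out). Those called lower numbered 5 with the block, 4 with the GC offset with or without it and 1 at 0.01 (1 to 3). Other remodelling ATPases called higher numbered 3 with the block, the GC offset or both and 0 at 0.01 (0 to 4), and lower 1 with DESeq2 or a mean of at least 1 CPM, 4 with the block and 0 at 0.01 (0 to 2). The cause of these shifts was not tested.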
